A study of Mus musculus with 2 samples.

Results

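Collagens, laminins, fibronectin and integrins were examined after knockdown of Mll2, a histone H3 lysine 4 methyltransferase, in the mouse embryonic stem cell line E14. One group of E14 cells expressed a short hairpin RNA (shRNA) to Mll2 and the other a control shRNA. Members were chosen by gene symbol alone: every probe set whose platform annotation gave a single symbol, that symbol being a collagen chain (Col, a number, a and a number), a laminin chain (Lama, Lamb or Lamc and a number), an integrin chain (Itga or Itgb and a number, or Itgav) or Fn1. This gave 150 probe sets of 72 genes, out of 34945 probe sets of 18193 genes with a single symbol: 42 collagen, 10 laminin and 19 integrin genes and the fibronectin gene. Both groups had been infected with lentivirus, for 24 h in the stated protocol, and kept in puromycin for 5 days; no other difference between them is given than the shRNA. Each group was a single Affymetrix array, so no difference between the groups has a replicate check, no test and no p-value can be given. The labels do not say how many cultures, clones or hairpins stood behind each array.

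Collagens, laminins and fibronectin are secreted proteins that build the extracellular matrix, and integrins are the heterodimers of an alpha and a beta chain through which cells grip it. Laminins and type IV collagen assemble into basement membrane, the first matrix sheet of the mouse embryo, while fibrillar collagens of types I, III and V give tensile strength to connective tissue. Fibronectin is bound through its arginine-glycine-aspartate (RGD) motif, above all by the integrin pair of Itga5 and Itgb1, and laminin by the pair of Itga6 and Itgb1. Embryonic stem cells in culture make both kinds of ligand and receptor.

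The promoters of 3 collagen genes are shown because these genes stand for the main patterns described further on: Col8a1 was the gene with the largest ratio among members above background on both arrays, Col5a1 the one with the smallest, and Col3a1 is a measured fibrillar collagen gene without a CpG in its window. Each line gives the 250 bases upstream of the annotated start, read 5′ to 3′ on the gene's strand from RefSeq, build GRCm38.p6: Col8a1 at chr16:57754738-57754987 (minus strand), Col5a1 at chr2:27886175-27886424 (plus strand) and Col3a1 at chr1:45311288-45311537 (plus strand). Capitals mark matches, on either strand, to the GC box GGGCGG, the CCAAT box CCAAT or the TATA box TATAAA.
Col8a1: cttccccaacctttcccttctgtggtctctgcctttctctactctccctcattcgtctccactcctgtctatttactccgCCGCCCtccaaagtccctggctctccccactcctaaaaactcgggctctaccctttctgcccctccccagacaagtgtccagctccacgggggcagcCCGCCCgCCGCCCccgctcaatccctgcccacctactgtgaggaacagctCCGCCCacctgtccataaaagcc
Col5a1: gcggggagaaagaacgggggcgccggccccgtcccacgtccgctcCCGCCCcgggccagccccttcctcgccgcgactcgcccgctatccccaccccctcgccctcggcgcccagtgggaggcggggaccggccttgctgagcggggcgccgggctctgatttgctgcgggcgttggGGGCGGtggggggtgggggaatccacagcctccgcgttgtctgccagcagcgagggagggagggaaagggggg
Col3a1: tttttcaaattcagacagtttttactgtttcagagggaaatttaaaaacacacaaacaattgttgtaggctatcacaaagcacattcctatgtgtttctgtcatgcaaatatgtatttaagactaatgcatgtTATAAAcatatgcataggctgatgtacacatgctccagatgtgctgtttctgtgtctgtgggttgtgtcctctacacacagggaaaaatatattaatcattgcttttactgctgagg

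The Col8a1 window held 10 CpG dinucleotides and 4 GC-box matches, the Col5a1 window 28 CpGs and 2 GC-box matches, and the Col3a1 window no CpG and 1 TATA-box match. Of all 32851 promoter windows of this length, 32.7% held a GC box, 33.8% a CCAAT box and 12.4% a TATA box. A match is a description of the letters only.

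Values are MAS5 signals on the log2 scale, as deposited. The 50th percentile of all values, a log2 value of 6.02 or a signal of 64.7, served as a floor to which dimmer values were raised before a ratio was taken. Genes with any probe set above it on either array are called measured, and the probe set of highest mean after the floor stands for the gene. A ratio in which one array lay below the floor is a lower bound in size, written "at least". Each ratio is the log2 value of the Mll2 shRNA array minus that of the control array. The "spread" beside a ratio is the scaled median absolute deviation among the 500 genes closest in level. Real differences widen it as much as noise does, and variation between cultures is not in it.

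The arrays had medians of 6.01 (Mll2 shRNA) and 6.02 (control shRNA). Kmt2d and Kmt2b have both been called Mll2, and the labels do not say which was targeted: Kmt2d had a signal of 335 against 736 in the control, and Kmt2b 852 against 901. All 10 embryonic stem cell markers were measured on both arrays, with summed signals of 89487 (Mll2 shRNA) and 92911 (control). Of these, 9 lay beyond the spread (90%, against 30.2% of all measured genes). Higher were 4 (Klf4 at 0.59 and Nanog at 0.47 among them) and lower 5 (Fgf4 at -0.65 and Pou5f1 at -0.44 among them). The Fgf4 probe sets disagreed: they ran up to 0.12, and the 3 above the floor on both arrays averaged -0.28 ± 0.39 (SD). Of 14 fibroblast markers outside the member families, 5 were measured, with summed signals of 710 and 836, and Thy1, Dcn, Lum, Postn, Prrx1, Twist2, Fbln2, Cdh11 and Tcf21 were below the floor on both arrays. Of 13 markers of primitive, visceral and parietal endoderm, cells that secrete basement membrane in quantity, 8 were measured, with summed signals of 1587 and 1120. Gata4, Pdgfra, Afp, Ttr and Cubn among them were below the floor on both arrays, while Foxa2 had a signal of 601 against 128. Without Foxa2 the sums were 986 and 992, with 4 of the 7 other markers above 0 and 3 below, Thbd at 0.73 and Dab2 at -0.59 beyond the spread. Of the 4 above 0, Sox7 and Sox17 were above the floor only in the Mll2 shRNA array and gave bounds, and Gata6 was at 0.03. The part of such cells in the values below was not tested, and in bulk RNA fewer cells of a type cannot be told apart from less RNA per cell.

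Of the 72 genes, 37 were measured, 30 of them with both values above the floor. The median ratio was 0.16 in collagens, 0.01 in laminins and 0.08 in integrins, and single genes differed in both directions. With the floor at the 30th percentile, which admits dimmer genes, these medians were -0.22, -0.22 and -0.03. Past the threshold of 2-fold, 2 of the 37 were higher in the Mll2 shRNA array, Col5a2 and Col8a1, and 1 was lower, Col5a1. Over all 11805 measured genes, 1.47% were at least 2-fold higher, 0.983% at least 2-fold lower and 2.45% either, against 8.11% of the 37. Col5a2 passed the floor only through the array in which it was higher. Among the 30 genes with both values above the floor the count was 2, or 6.67%, against 2.1% of the 10682 such genes overall. All 3 genes are collagens. None of the 3 reached 2-fold when the measured probe sets of a gene were averaged, when a pseudocount equal to the floor was added or with the floor at the 70th percentile. The share of all measured genes at least 2-fold apart was also lower there, at 2.01%, 1.36% and 1.07%. With ratios taken without a floor 2 members were at least 2-fold higher and 4 lower (16.2% of the 37, against 3.29% of all measured genes higher, 2.93% lower and 6.22% either), the lower ones being Col5a1, Col1a1, Col6a2 and Itga7. The genes and probe sets were still those chosen with the floor. Col6a2 was so counted by a probe set below the floor on 1 array, while its other gave 0.11. With the floor at the 30th percentile 5 were higher and 8 lower (21% of 62, against 3.31% higher, 3.22% lower and 6.53% either), so that the balance of higher and lower rests on the floor.

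Smaller differences were counted against the spread. Of the 37 measured genes, 15 had a ratio larger in size than the spread at their level (40.5%), 9 of them higher and 6 lower, where 30.2% of all measured genes did, 17.5% higher and 12.7% lower. Positive ratios were found in 22 and negative ones in 15 (59.5% positive, against 53.5% of all measured genes), and the median ratio was 0.11, against 0.03. These counts include 7 genes with only a bound, whose sign is set by the array in which they passed the floor; of the 30 others, 20 were positive (66.7%, against 53.7% of all such genes) and 14 lay beyond the spread (46.7%, against 32.4%).

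**Figure D1:**
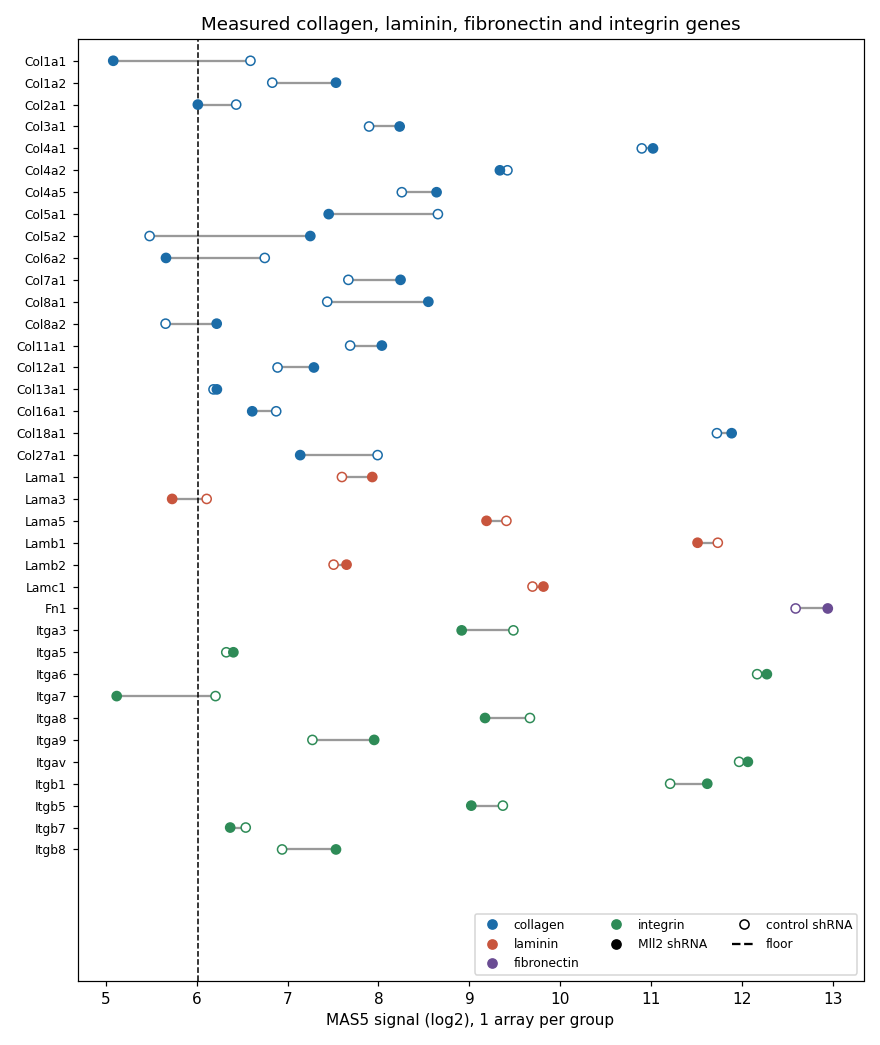
MAS5 signal on the log2 scale (horizontal axis) of the 37 measured genes, by family, with the Mll2 shRNA array as filled points and the control array as open points, 1 array each. The dashed line is the floor at 6.02. Most pairs lie close together. The widest pairs are those of Col5a2, Col1a1, Col5a1, Col8a1, Itga7 and Col6a2, and of these Col5a2, Col1a1, Itga7 and Col6a2 have 1 point left of the line, so that they gave only bounds.

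Fibronectin, the single member of its family, had the same ratio in both of its probe sets. Fn1 had a log2 value of 12.94 with the Mll2 shRNA and 12.59 with the control shRNA, a ratio of 0.35 or 1.28-fold, with a spread of 0.19 at its level. Its second probe set read 9.83 and 9.47, a ratio of 0.36. The Mll2 shRNA array was thus the higher one in both, and the ratio lay between 0.35 and 0.47 under the 10 alternative settings of scaling, floor and summary.

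The type IV collagens, the network of basement membrane, differed little. Col4a1 read 11.02 with the Mll2 shRNA and 10.89 with the control shRNA, a ratio of 0.12 that was below the spread of 0.29, and its second probe set gave -0.36. Col4a2 read 9.33 and 9.42, a ratio of -0.08. Col4a1 and Col4a2 encode the chains that assemble together, and RefSeq places their starts 21 bases apart on opposite strands, so that they are read from a common promoter region in opposite directions. The direction of Col4a1 turned to -0.12 when its probe sets were averaged, and that of Col4a2 to 0.03 with spike-in scaling. Col4a5, a chain of another type IV network, read 8.64 and 8.26, a ratio of 0.38 beside a spread of 0.35, with 0.16 in its second probe set. Its partner on the opposite strand, Col4a6, was below the floor on both arrays, as were Col4a3 and Col4a4, the chains best known from the glomerulus.

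The 3 collagen genes with the largest ratios in size after the floor were 2 partners of a single fibril and a network collagen. Col1a1, described further on, was further apart than Col5a1 and Col8a1 as deposited, but below the floor on 1 array. Col5a1, the main chain of type V collagen, which sits inside type I fibrils and sets their diameter, read 7.45 with the Mll2 shRNA and 8.65 with the control shRNA, with signals of 175 and 403. It was 2.30-fold lower (ratio -1.20, spread 0.37). Its second probe set read 7.35 and 7.75, a ratio of -0.40, so that both were lower but only 1 by 2-fold, and the mean over them was -0.80 ± 0.56 (SD over 2 probe sets).

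Col5a2, the other chain of the type V heterotrimer, went the other way. It read 7.25 in the Mll2 shRNA array, a signal of 152, and 5.48 in the control, which is below the floor, so that it was at least 2.35-fold higher. Its second probe set lay at 6.08 and 3.89 and gave at least 0.06. Neither probe set had a control value above the floor, so that both were measured only through the array in which they were higher, and their mean of 0.65 was under 2-fold. As deposited its probe sets differed by 1.77 and 2.19. The direction of Col5a2 thus rests on control values below the floor, whereas Col5a1 was above it on both arrays. The third chain gene of this type, Col5a3, was below the floor on both arrays.

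Col8a1, a short-chain collagen that forms hexagonal lattices around vessels and in the cornea, read 8.55 with the Mll2 shRNA and 7.44 with the control shRNA, with signals of 374 and 173. It was 2.16-fold higher (ratio 1.11, spread 0.38), and its second probe set, at 6.60 and 5.40, gave at least 0.59. Col8a2, its partner chain, read 6.22 and 5.66 and was at least 1.15-fold higher. Col8a2 was above the floor only in the array in which it was higher, and Col10a1, the hypertrophic cartilage member, was below the floor.

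The other fibrillar collagens had ratios of both signs. Col1a2, a chain of type I collagen, read 7.53 and 6.83, a ratio of 0.70 beside a spread of 0.50, and its 2 further probe sets were below the floor. Col1a1, the other type I chain, was below the floor in the Mll2 shRNA array at 5.08 and at 6.59 in the control, at least 1.49-fold lower in the probe set used. Its other probe set lay barely above the floor in the Mll2 shRNA array, at 6.02, and at 3.66 in the control, so that its bound was 0.00. Each Col1a1 probe set was above the floor on 1 array only, and as deposited they differed by -1.51 and 2.36, so that no direction can be given for Col1a1.

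Col3a1, the type III collagen of elastic tissues, read 8.23 and 7.90, a ratio of 0.34 that was below the spread of 0.38. Col11a1, a cartilage fibril chain, read 8.04 and 7.69, a ratio of 0.35 beside a spread of 0.41, and its second probe set gave 0.41. Col27a1, another fibrillar chain, read 7.14 and 7.99, a ratio of -0.85, but 0.66 in its second probe set, at 6.99 and 6.33. Its probe sets averaged -0.09 ± 1.07 (SD over 2), so that no direction can be given for this gene. Col2a1, the main collagen of cartilage, was at least 1.34-fold lower, at 6.01 and 6.44. Of the 8 measured fibrillar genes, 4 were above 0 and 4 below, 3 of them (Col1a1, Col2a1 and Col5a2) by bounds (median -0.04, range -1.20 to 1.23).

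Of the remaining collagens, Col7a1 was the one with a ratio beyond the spread. Col18a1, the basement membrane proteoglycan collagen from which endostatin is cut, read 11.88 and 11.72, a ratio of 0.16 beside a spread of 0.23, and its second probe set gave -0.01. Col7a1, which forms the anchoring fibrils under epithelia, read 8.24 and 7.67, a ratio of 0.57 beside a spread of 0.38. Col6a2, of the beaded filaments of type VI, was at least 1.66-fold lower at 5.66 and 6.75 in one probe set, a bound of -0.73 beside a spread of 0.78, and at 0.11 in the other. Col12a1 and Col16a1, which bind to the surface of fibrils, were at 0.40 and -0.26, and the transmembrane collagen Col13a1 at 0.04. In all, 12 of the 19 measured collagen genes were above 0 (63.2%, against 53.5% of all measured genes) and 7 below, with a median of 0.16. Col1a1, Col2a1, Col5a2, Col6a2 and Col8a2 are counted by bounds. No direction can be given for Col1a1 and Col27a1, which are counted as below 0.

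**Figure D2:**
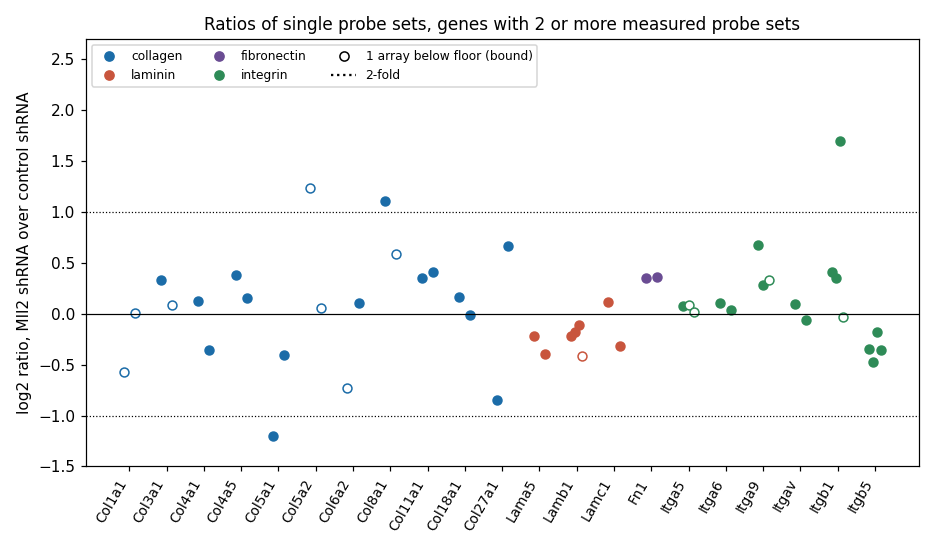
Log2 ratio of Mll2 shRNA over control shRNA (vertical axis) in every measured probe set of genes that have 2 or more, by gene and coloured by family. Filled points were above the floor on both arrays and open points on 1, and dotted lines mark 2-fold. The 4 Itgb5 points lie below 0, the 2 Fn1 points fall on each other, and the Col27a1 points lie on both sides of 0.

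The laminins, trimers of an alpha, a beta and a gamma chain, showed the smallest differences of the families with several members: 6 of 10 genes were measured, none reached 2-fold, and the ratios ran from -0.22 to 0.33 (median 0.01). Lamb1, the beta chain of the first laminin of the embryo, read 11.51 with the Mll2 shRNA and 11.73 with the control shRNA, a ratio of -0.22 beside a spread of 0.22. All 4 of its measured probe sets were lower in the Mll2 shRNA array, at -0.11 to -0.42, the last a bound, and the 3 above the floor averaged -0.17 ± 0.06 (SD). Lamc1, the gamma chain that most laminins share, read 9.81 and 9.69, a ratio of 0.12, with -0.32 in its second probe set.

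The alpha chains, which carry the main site for integrins, differed in direction. Lama1, the alpha chain of the first embryonic laminin, read 7.93 and 7.60, a ratio of 0.33 that was below the spread of 0.42. Lama5, which embryonic stem cells use for adhesion and self-renewal, read 9.19 and 9.41, a ratio of -0.22, while the other measured probe set gave -0.39 (mean -0.31 ± 0.12, SD over 2). Lama3, an epithelial chain, was at least 1.07-fold lower, at 5.73 and 6.11. Lamb2 read 7.65 and 7.51, a ratio of 0.14, and Lama2, Lama4, Lamb3 and Lamc3 were below the floor on both arrays. Neither Lama1 nor Lama5 lay beyond the spread at its level, and Lama3 gave only a bound.

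The alpha chains Itga6, Itgav and Itga5, which bind laminin or RGD ligands, were nearly level between arrays. Itga6, the laminin-binding chain that is also used as a surface marker of stem cells, read 12.27 and 12.16, a ratio of 0.11, with 0.03 in its second probe set. Itgav, an RGD-binding chain with several beta partners, read 12.06 and 11.97, a ratio of 0.10, with -0.06 in its second. Itga5, the classical fibronectin receptor chain, read 6.40 and 6.33, close to the floor, a ratio of 0.08, and its 3 measured probe sets ran from 0.02 to 0.09. All 3 genes were within the spread at their levels.

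Itga3, a laminin-binding chain of epithelial cells, read 8.91 with the Mll2 shRNA and 9.48 with the control shRNA, a ratio of -0.57 beside a spread of 0.35. Its 2 other probe sets were below the floor on both arrays. Itga8, an RGD-binding chain known for its role in kidney development, read 9.17 and 9.67, a ratio of -0.49 beside a spread of 0.32, also in a single measured probe set. Itga9, which binds tenascin and related ligands, was higher: it read 7.95 and 7.27, a ratio of 0.68 beside a spread of 0.43, and its second probe set above the floor gave 0.29 (mean 0.48 ± 0.28, SD over 2). A further Itga9 probe set gave at least 0.34. Itga7, the muscle laminin receptor chain, read 5.12 and 6.21 and was at least 1.14-fold lower, a bound that cannot place it within or beyond its spread of 0.25. Of the 7 measured alpha chains, 4 were above 0 and 3 below. Among the 6 with both values above the floor, Itga3, Itga8 and Itga9 lay beyond the spread, where 32.4% of all such genes did.

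Of the 4 measured beta chains, 3 lay beyond the spread, 2 higher and 1 lower, where 30.2% of all measured genes did. The lower one, Itgb5, exceeded its spread only narrowly. Itgb1, the partner of most alpha chains and essential in the early embryo, read 11.62 with the Mll2 shRNA and 11.21 with the control shRNA, a ratio of 0.41 beside a spread of 0.25. Its second probe set read 11.03 and 10.68, a ratio of 0.35. Another gave 1.69, at 7.72 and 6.02, with a control value just above the floor, and carries the suffix _x_at of probe sets that can detect other transcripts. The remaining measured one, at 4.16 and 6.04, gave at least 0.03 in the other direction and differed by -1.89 as deposited. Thus 3 of the 4 measured were higher in the Mll2 shRNA array, and the mean over the 3 above the floor was 0.82 ± 0.76 (SD). Further Itgb1 probe sets were below the floor on both arrays.

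Itgb5, a beta chain that pairs with Itgav, was lower in each of its 4 probe sets: it read 9.02 and 9.37 in the one used for the gene, a ratio of -0.35 beside a spread of 0.34. The others gave -0.47, -0.35 and -0.18, a mean over the 4 of -0.34 ± 0.12 (SD). Itgb8, another partner of Itgav, which activates latent TGF-beta, read 7.53 and 6.94, a ratio of 0.59 beside a spread of 0.49 in a single probe set. The partners of Itgav thus differed in direction while Itgav itself was at 0.10. Itgb7, a lymphocyte chain, read 6.37 and 6.54, a ratio of -0.17.

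Of the 19 integrin genes, 8 were below the floor on both arrays. They include the collagen-binding alpha chains Itga1, Itga2 and Itga10, the Itga4 chain of blood cells with all 5 of its probe sets, the leukocyte chain Itgb2, the platelet chain Itgb3 and the epithelial chains Itgb4 and Itgb6. Over the whole set, 84 of 150 probe sets were below the floor on both arrays. Their values as deposited differed between the arrays by -4.44 (Col6a1) to 3.36 (Col20a1), and 46 of the 84 by 2-fold or more, where 3 of the 50 with both values above the floor did so. Of all 18509 named probe sets with both values above the floor, 1.9% were at least 2-fold apart. The floor sets the ratio of genes below it to 0, so that only differences as deposited can be given for them. Some were higher in the Mll2 shRNA array in every probe set, as Itga4 (5 probe sets, 0.81 to 2.66) and Col4a6 (1.90 and 1.98). Others were lower in every probe set, as Col22a1 (-1.41, -0.29 and -4.00), Col4a3 (-0.77 and -2.71) and Col4a4 (-1.74, -0.23 and -0.11). The signals of all these probe sets were at most 56.3, under the floor of 64.7, so that no direction is given for these genes.

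**Figure D3:**
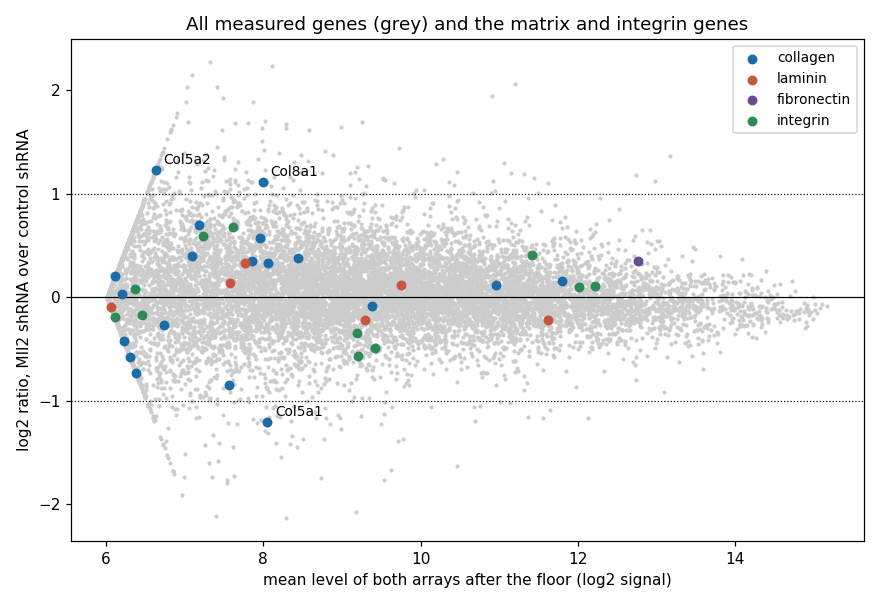
Log2 ratio of Mll2 shRNA over control shRNA (vertical axis) against the mean level of both arrays after the floor (horizontal axis, log2 signal) for all 11805 measured genes in grey and the 37 member genes by family. Dotted lines mark 2-fold. Col5a2, Col8a1 and Col5a1 lie outside these lines at low to middle levels, and the wedge at the left edge is made by the floor.

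Second probe sets gave a measure of technical reliability. Of 15 member genes with both values above the floor in 2 or more probe sets, 10 had the same sign in all of them (66.7%), 6 positive and 4 negative, against 54.4% of 4713 such genes overall. The 5 with mixed signs were Col4a1, Col18a1, Col27a1, Itgav and Lamc1. The median SD over probe sets was 0.12 in the members and 0.19 overall. Probe sets of a gene were read on the same arrays and can share sequence, so this spread does not cover variation between cultures.

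The promoter windows were compared between the genes measured and those below the floor. RefSeq windows were at hand for 27 of 37 measured members and 25 of the 35 below the floor. The 250 bases upstream held a median of 14 CpGs in the measured members (0 to 31) and 6 in those below the floor (0 to 18). Over all genes the medians were 16 and 4, so that the members followed the order of genes in general. Col4a1 and Col4a2, with 31 and 26 CpGs, and Col5a1, with 28, were at the upper end, and Col3a1, with none, at the lower. A GC box was found in 18 of the 27 (66.7%) and 9 of the 25 (36%) windows, beside 60.9% of all measured genes and 28.3% of all genes below the floor. A CCAAT box was found in 10 (37%) and 4 (16%), beside 36.7% and 33.7%, and a TATA box in 2 (7.41%) and 3 (12%), beside 6.29% and 14.3%.

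Other genes of the matrix and its receptors were described from 6 lists. Of 10 measured basement membrane partners, none reached 2-fold, 6 were above 0 and 4 below, and the median was 0.11. Nid1, the nidogen that links laminin to type IV collagen, was at 0.83 with 0.66 in its second probe set, while Agrn, a heparan sulfate proteoglycan, was at -0.65 and Sparc, a collagen-binding glycoprotein, at -0.57. These 3 were beyond the spread at their levels (0.23, 0.30 and 0.22), though one Sparc probe set of 3 gave 0.02.

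Of 22 measured genes of collagen biosynthesis and crosslinking, none reached 2-fold (13 above 0, 9 below, median 0.10). Those with the largest ratios after the floor were the crosslinking enzyme gene Lox at -0.84, the prolyl hydroxylase family gene P3h3 at 0.70 and Pcolce, an enhancer of procollagen processing, at -0.70, with -0.77 in its second probe set. Lox and P3h3 each had a single measured probe set with a value close to the floor. Lox read 6.18 and 7.02 beside a spread of 0.55. P3h3 read 6.81 and 6.10 and was within its spread of 0.81. Loxl4, a relative of Lox, read 4.66 and 6.68 and was at -0.66 as a bound. Serpinh1, the collagen chaperone of the endoplasmic reticulum, was at -0.60. Loxl4 and Serpinh1 were looked up after the values were seen. Of the 7 genes of this list beyond the spread, 2 were higher and 5 lower, a share of 31.8% that was near the 30.2% of all measured genes.

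Of 21 measured genes of the integrin adhesion complex, none reached 2-fold (14 above 0, 7 below, median 0.07). Beyond the spread lay 7 genes, 6 of them higher, a share of 33.3% that was near the 30.2% of all measured genes. Git1, a scaffold of focal adhesions, was at -0.59, Lims1, which joins integrin-linked kinase to the complex, at 0.51 and Csk, the kinase that restrains Src, at 0.49. Tln1, the talin gene, was at 0.28 in one probe set and -0.53 in the other, and Vcl, the vinculin gene, at 0.28 and -0.002. Lims1 had 5 probe sets above the floor, and they ran from -0.11 to 0.57.

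Of 14 measured genes for other matrix receptors and integrin chains outside the naming rule, none reached 2-fold (median 0.07). The syndecans, proteoglycan co-receptors of integrins, differed in direction: Sdc4 was at -0.82, with -1.22 in its second probe set, and Sdc3 at 0.81, with 0.47. Itga2b, the platelet integrin chain, was at 0.36. Of 14 measured other matrix glycoproteins and proteoglycans, 1 was at least 2-fold lower, the thrombospondin gene Thbs3 at -1.29, and Efemp1, a fibulin, was at -0.98 and Tnc, tenascin C, at 0.83 (median -0.10, with 5 above 0 and 9 below). The single gene is 7.14% of this short list, beside 0.983% of all measured genes lower and 2.45% either. Thbs3, Efemp1 and Tnc each had a single measured probe set.

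Of 21 measured matrix proteases and inhibitors, 1 was at least 2-fold lower, the plasminogen activator gene Plat at -1.03 (median 0.02, with 11 above 0 and 10 below). Reck, a membrane-anchored inhibitor of matrix metalloproteases, was at 0.93 and Adamts1, a protease that cleaves proteoglycans, at 0.85. Over the 6 lists, 2 of 102 measured genes reached 2-fold (1.96%, beside 2.45% of all measured genes).

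**Figure D4:**
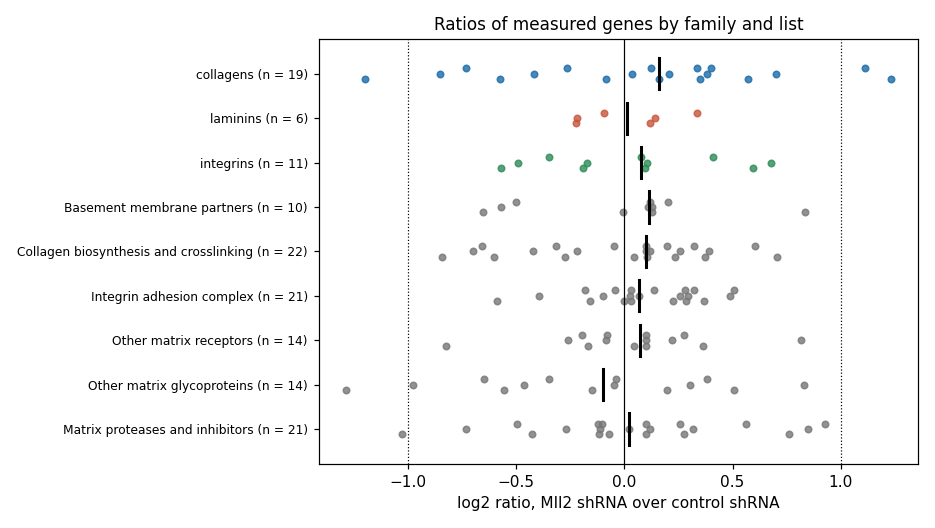
Log2 ratio of Mll2 shRNA over control shRNA (horizontal axis) of each measured gene, by family (coloured) and by list (grey), with the number of genes and the median as a black bar; fibronectin, a single gene, is not drawn. Dotted lines mark 2-fold. The 9 medians lie between -0.10 and 0.16, and collagens are the group with genes beyond 2-fold on both sides.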

How the data were processed

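Total RNA of each group was amplified into biotin-labelled cRNA and hybridised on 1 Affymetrix array each, per the labels' protocols. The deposited table holds log2 values for 45101 probe sets, made by the authors with MAS5 per the submitters' processing notes; its version and any later step: not given in the sources used here. MAS5 subtracts mismatch probes and scales each array; the 2% trimmed mean of the signals was 500.0 on both. Dim probe sets are noisy after mismatch subtraction, and 1 array per group limits the precision.

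After 64 control probe sets were set aside, 34945 of 45037 had 1 gene symbol, 932 several and 9160 none listed. Symbols were updated to RefSeq (GRCm38.p6) by Entrez number for 34741. Floor, ratios and spread were computed as described above. No test between groups was possible. Members, lists and classes were chosen with earlier results of these data known. Named genes were Fn1, fixed basement membrane, fibrillar and integrin genes, the 3 largest and 3 smallest ratios per family, other members where their family needed them, and up to 3 per list. Alternatives were 4 scalings, floors at the 30th and 70th percentiles, ratios without a floor, a pseudocount, the mean over probe sets, no suffixed probe sets, and thresholds of 1.5-fold and 3-fold. Ratios without a floor, and those with the pseudocount, were taken for the genes and probe sets chosen with the floor. Promoter windows came from RefSeq, the first listed per gene. Python 3.11.15 with numpy 2.4.6, pandas 2.3.3, scipy 1.17.1, statsmodels 0.14.6 (loess, span 0.4) and matplotlib 3.10.9 was used.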

Additional observations from a re-analysis of the deposited data

How the results depend on the processing

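The sign held under every alternative run for 22 of the 26 genes named by the rule. These include Col1a1 and Col27a1, whose probe sets disagree, so that no direction can be given for them. Col5a2 and Lama3 are also included, which like Col1a1 had no probe set above the floor on both arrays, so that their sign rests on values below the floor on 1 array. All alternatives use the same arrays, and a kept sign is no replicate check. Of the 247 values of the 26 genes, 236 moved by less than the spread. Col4a1, Col4a2, Col6a2 and Lamc1 changed sign under 1 alternative each. The floor decided most: at the 30th percentile, 5 of 62 measured members were at least 2-fold higher and 8 lower (6.53% of all measured genes were 2-fold apart), and the medians were -0.22 in collagens, -0.22 in laminins, -0.029 in integrins, 0.18 in the adhesion complex and -0.10 in proteases and inhibitors, with 1 gene at 2-fold in each of the biosynthesis, adhesion and receptor lists and 2 in the glycoprotein list. At the 70th percentile, 0 of 20 were higher and 0 lower, beside 1.07% of all measured genes 2-fold apart. The medians there were -0.22 in laminins, -0.13 in integrins, 0.18 in the adhesion complex, -0.074 in receptors and 0.13 in glycoproteins, and the glycoprotein and protease lists had 0 genes at 2-fold. With ratios taken without a floor 4 members were at least 2-fold lower, beside 6.22% of all measured genes 2-fold apart. The glycoprotein median was then -0.29, and 1 biosynthesis, 1 receptor and 2 glycoprotein genes reached 2-fold. A pseudocount left 0 members higher, 0 lower and 0 proteases, beside 1.36% of all measured genes 2-fold apart. Averaging probe sets left 0 and 0 members and 1 receptor gene, beside 2.01% of all measured genes 2-fold apart. The medians were then -0.10 in laminins, -0.064 in receptors and -0.21 in glycoproteins. Leaving out suffixed probe sets gave medians of 0.12 in laminins and -0.17 in receptors, with 1 receptor gene.

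Scaling on the bacterial spike-in controls moved the median of all genes from 0.03 to 0.14, and with it those of collagens (0.27), integrins (0.20), basement membrane partners (0.23), the adhesion complex (0.30) and proteases (0.14). Quantile normalization and loess gave 2 glycoprotein genes at 2-fold. At 1.5-fold, 5 members were higher and 3 lower, beside 12.1% of all measured genes, and the lists held 2 basement membrane, 6 biosynthesis, 1 adhesion, 2 receptor, 4 glycoprotein and 5 protease genes. At 3-fold there were 0 members in either direction and 0 glycoprotein and protease genes, beside 0.381%. The cause of these shifts was not tested, apart from the floors and thresholds themselves, which change how many genes enter. No paired analysis was possible because each group has 1 array. Signal over background limits the 35 members below the floor.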
